A study of Mus musculus with 32 samples.

Results

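The cytosolic ribosomal protein genes code for the proteins of the ribosome that works in the cytoplasm, and here they are the lines of the expression table whose symbol is Rpl or Rps followed by a number, with Rpsa, Rplp0, Rplp1 and Rplp2 added and names containing -ps left out. This gave 87 of the 39011 lines, 50 named for the large subunit and 37 for the small subunit. In GENCODE M21, 82 of them are protein-coding and 5 (Rps3a2, Rps3a3, Rps4y2, Rps12l1 and Rps12l2) are annotated as processed pseudogenes. The study sequenced total RNA of cells taken from the neurogenic zone of the mouse forebrain, the subventricular zone, at postnatal day 21 with single-cell library protocols, as 28 single cells and 4 pools of 10 cells each. The labels name no strain, genotype, treatment, sort or animal for any library, so the cells were treated as 1 sample of cells, their differences are given with no test, and the 4 pools were the only replicates. The title of the study asks for signals that activate dormant neural stem cells.

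A ribosome is built from ribosomal RNA and one copy of most ribosomal proteins, so these genes are needed in every growing and non-growing cell and are among the most abundant messages of a cell. Many of their transcripts begin with a run of pyrimidines, the 5′ terminal oligopyrimidine tract, through which the mTOR pathway sets their translation. The same messages have been copied back into the mouse genome many times as processed pseudogenes, intron-less copies that can match the parent message base for base, so that a short read from the message can also be placed on the copy. In the subventricular zone, where stem cells move between rest and division, a higher output of ribosomes is a known mark of activation.

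The FPKM values (fragments scaled to the length of the transcript and to the mapped fragments of the library) were made by the authors, and no read counts were used here. Steps of 1 fragment in single-exon genes gave an approximate depth for 19 of the 32 libraries, from 6.21 to 38.9 (in units of 1e6 fragments), and for the other libraries the depth is unknown. Cells 18 to 22 and cells 23 to 28 stood apart from cells 1 to 17. These sets were drawn from the values, and the labels name no batch. Protein-coding genes that reached an FPKM of 100 in a cell of the set were taken, with their values in the set's other cells. Of these values 32.8% were 0 in cells 1 to 17, against 0.0843% in cells 18 to 22 and 0.449% in cells 23 to 28. In cells 1 to 17, 31.9% lay above 0 but did not reach 2% of what the gene's top cell in that set had. In cells 18 to 22 and 23 to 28, 85.6% and 81.9% did so. Counts of cells in which a gene was found are as deposited, low values included, unless the limit is named. The limit was applied to cells 18 to 28 alone, and low values of cells 1 to 17 and the pools were kept.

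The name of 1 line goes against its gene ID. The line named Rpl24 carries the ID that GENCODE M21 gives to Zbtb11, a zinc finger gene next to Rpl24 on chromosome 16, and the ID of Rpl24 stands on a line written in capitals, RPL24, which the naming rule passes over. The line named Rpl24 had a median FPKM of 0.379 over the 28 cells, with a highest value of 58.4, whereas the RPL24 line had a median of 1602 and reached an FPKM of 1 in all 28 cells as deposited. RPL24 had 5.16, 24.9, 2.19, 21.04 and 1542 in cells 18 to 22 and 822, 2267, 1188 and 555 in pools 1 to 4, so cells 18 to 21 lay far below the median. RPL24 is left out of the member counts below, and exchanging it for the line named Rpl24 changed no main value by more than its spread. The lines Rps4y2 and Rps12l2 are called Rps4l and Rps12-ps24 in GENCODE M21.

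The sequence of 1 parent beside an abundant copy shows how closely message and pseudogene can match. Rps27, a protein of the small subunit, lies on the minus strand of chromosome 3 (GRCm38, chr3:90212522-90213651), and its copy Gm11572 on the minus strand of chromosome 11 (chr11:97116796-97116915). The stretches below are 90 bases of GENCODE M21 transcript, 5′ to 3′, covering coding bases 13 to 102 of Rps27, with capitals marking the bases that differ between parent and copy.
Rps27: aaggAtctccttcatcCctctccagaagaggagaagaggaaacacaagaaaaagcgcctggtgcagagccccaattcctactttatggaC
Gm11572: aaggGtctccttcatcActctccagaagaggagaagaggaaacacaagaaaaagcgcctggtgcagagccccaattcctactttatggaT
The pair has 3 differences, A5G, C17A and C90T, with the parent's base first and positions counted from 1 at the 5′ end of the stretch.

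The starts of 3 genes that the results below turn on are shown for the pyrimidine-rich tract of this gene family, from 30 bases before to 20 bases after the annotated start in RefSeq (GRCm38.p6), all on the minus strand, with CTTT in capitals. They are Rpl13a at chr7:45128726-45128775, Rps12 at chr10:23787190-23787239 and Rps6 at chr4:86857348-86857397.
Rpl13a: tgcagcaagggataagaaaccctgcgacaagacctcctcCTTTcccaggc
Rps12: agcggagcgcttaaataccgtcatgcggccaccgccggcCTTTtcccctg
Rps6: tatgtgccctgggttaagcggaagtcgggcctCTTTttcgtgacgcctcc
RefSeq starts were found for 61 members, with 73 starts in all. On the gene's strand, from 10 bases before to 15 bases after the start, CTTT occurred in 26.03% of the members' starts and in 9.8% of all 32851 starts of the table. The longer CTTTCC, which contains CTTT, occurred in 13.7% and 1.04%. A match is a run of letters only.

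The members took up a median of 8.68% of the summed FPKM of a cell, from 2.47% in cell 26 to 22.4% in cell 1. The share was highest in cells led by endothelial genes and low in cells led by astrocyte or oligodendrocyte genes. A cell is called led by the marker list with the highest mean log2(FPKM + 1), out of 10 lists of known cell type genes, and the leading list had at least 7 of its genes at an FPKM of 1 in each library. Endothelial genes led 8 cells and 2 pools, neuroblast genes 7 cells, microglia genes 4 cells, oligodendrocyte genes 3 cells and 2 pools, ependymal genes 3 cells, genes of astrocytes and astrocyte-like stem cells 2 cells and choroid plexus genes 1 cell. The 8 endothelial-led cells (1, 2, 3, 6, 7, 8, 16 and 17) ranged from 8.5% to 22.4%, with a median of 13.7%. The oligodendrocyte-led cells 4, 12 and 13 had 5.79%, 6.99% and 5.7%, and the astrocyte-led cells 11 and 14 had 4.58% and 5.41%. All 5 of these lay below every endothelial-led cell. Cells led by ependymal genes (9, 10 and 15) had 10.2%, 9.25% and 4.16%, and the choroid plexus-led cell 5 had 10.4%, so 3 of these 4 lay within the endothelial-led range.

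In cells 18 to 22, the microglia-led cells 18, 19 and 20 had 4.58%, 10.03% and 7.79%, cell 21 had 9.18%, and the neuroblast-led cell 22 had 18.2%. The lead in cell 21 turned with the low values: as deposited it was microglia, with a mean log2(FPKM + 1) of 4.95 against 9.88 to 10.83 in cells 18 to 20, and with the 2% limit it was neuroblast, with 3.81. The limit was applied to cells 18 to 28 alone, and every other cell among these kept its lead. The values of the remaining libraries were left as deposited, so their leads could not turn. The neuroblast-led cells 23 to 28 ranged from 2.47% to 8.86%, so cell 22 stood above all other neuroblast-led cells. This rests on 1 cell, and cell 22 differs from cells 23 to 28 in pseudogene signal as well. Over protein-coding lines alone the gap was small, with 22.5% in cell 22 against 4.66% to 21.3% in cells 23 to 28. The share depends on what else fills the table. Over protein-coding lines alone the median was 13.4%, and the endothelial-led cells ranged from 15.8% to 30.7% against 7.1% to 10.5% in the 5 astrocyte- or oligodendrocyte-led cells.

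**Figure D1:**
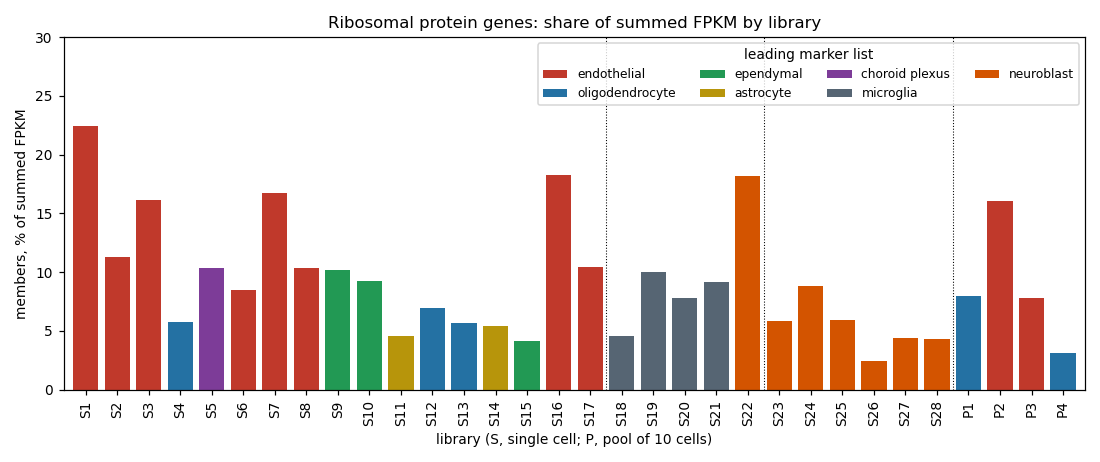
Share of summed FPKM taken by the 87 ribosomal protein lines in each library (bars, percent), coloured by the leading marker list as deposited; dotted lines separate cells 1 to 17, 18 to 22, 23 to 28 and the pools. The tallest bars are those of cell 1 (22.4%), cell 16 (18.3%) and cell 22 (18.2%).

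Within cells 1 to 17, the higher share of endothelial-led cells was spread over most members. These groups come from the cells' marker genes, not from the labels. The log2 ratio of mean FPKM (with 1 added to each mean) of the 8 endothelial-led cells over the 9 others had a median of 1.26 over the members, against -0.16 over all 19853 genes that reached an FPKM of 1 in a library and 0.08 over the 1065 protein-coding genes with a mean of at least 100. Of the 85 members that reached an FPKM of 1 in a library, 60 were at least 2-fold higher in the endothelial-led cells, where 18.9% of all genes were, and 1 (Rpl39l) was at least 2-fold lower, where 33.4% of all genes were. Among abundant protein-coding genes 28.3% were at least 2-fold higher.

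Rps12 had an FPKM of 3044 to 19317 in the endothelial-led cells (median 7835) and of 389 to 5830.4 in the others (median 2154), a log2 ratio of 1.86 with overlapping ranges. Rpl27a, a large subunit protein, ranged from 1210.3 to 7713 against 212 to 1046, and was the 1 member with no overlap, where 0.327% of all genes and 2.25% of abundant protein-coding genes lay wholly higher in the endothelial-led cells, so full separation was not more common among the members than among abundant genes. At the other end, Rpl10, among the last proteins to join the large subunit, had a mean of 1025 against 1352, with cell 10 at 4588, and Rpl36 had a log2 ratio of -0.93. Single cells set the far ends: the ratio of 7.0 of Rps4y2 rested on cell 2 and that of Rpl39l (-1.04) on cell 13. The endothelial marker list had a mean log2(FPKM + 1) of 7.39 to 9.73 in the endothelial-led cells, with 10 to 12 of its 12 genes at an FPKM of 1, and of 0.26 to 1.31 in the others, with 0 to 5 genes. The endothelial-led cells had fewer protein-coding genes found (median 3437 against 4803), and the part of this in the ratio was not tested. With libraries rescaled to the same protein-coding sum the median was 1.10 and 53 members were at least 2-fold higher. With each of the 17 cells left out in turn, the median lay between 1.14 and 1.40 and the count between 55 and 63.

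As deposited, most members were found in every cell. 46 of them reached an FPKM of 1 in all 28 cells, where 0.635% of all genes and 10% of abundant protein-coding genes did. A further 27 were found in 25 to 27 cells, 12 in 1 to 24, and Rpl3l and Rpl10l in none. A cell had a median of 79 members at an FPKM of 1 (61 to 83), with the lowest number in cell 14, and a pool had 82 to 84. The counts in cells 18 to 28 rested on low values. With every value that missed this 2% limit read as 0, cells 18 to 22 had 39 to 72 members in place of 74 to 77, cells 23 to 28 had 33 to 74 in place of 78 to 82, and 3 members (Rpl13a, Rpl6 and Rpsa) stayed at an FPKM of 1 in all 28 cells, where 0.0856% of all genes and 0.657% of abundant protein-coding genes did.

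Levels spanned a wide range. 71 members had a median FPKM of at least 100 over the 28 cells and 19 of at least 1000. Rpl13a, a large subunit protein that in human cells also leaves the ribosome to silence inflammatory messages, was the highest, with a median of 4352 and a range from 35.5 in cell 11 to 32150.2 in cell 27. It was the most abundant member in 11 of the 32 libraries, and in cell 27 it made up 45.1% of all ribosomal protein FPKM. Rps12, of the head of the small subunit, came next with a median of 2245 and ranged from 8.1 in cell 28 to 19317 in cell 3. It led in 9 libraries, all of them among cells 1 to 17 and pools 1 and 2.

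Next by median, among others, came Rpl23a at the exit of the peptide tunnel (2149), Rps9 (1959), Rpl7 (1678), Rpl26 (1620.4), Rpl41, the shortest ribosomal protein (1319), Rpl17 (1293) and Rpl35a (1228). Each of them reached an FPKM of 1 in all 28 cells as deposited and in 24 to 27 with the 2% limit, and their ranges overlapped almost fully: Rpl23a ran from 16.9 to 7848 and Rpl35a from 2.89 to 9921. These neighbours did not differ beyond their spread. The 10 most abundant members of a library made up 31.8% to 60.8% of ribosomal protein FPKM in cells 1 to 17. They made up 47.8% to 81.4% in cells 18 to 22 and 43.1% to 75.7% in cells 23 to 28. In the pools the range was 30.1% to 34.4%, which overlapped that of cells 1 to 17, with cells 16 and 2 at 31.8% and 32.1%. Each pool holds 10 cells, and the part of this in the lower range was not tested.

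**Figure D2:**
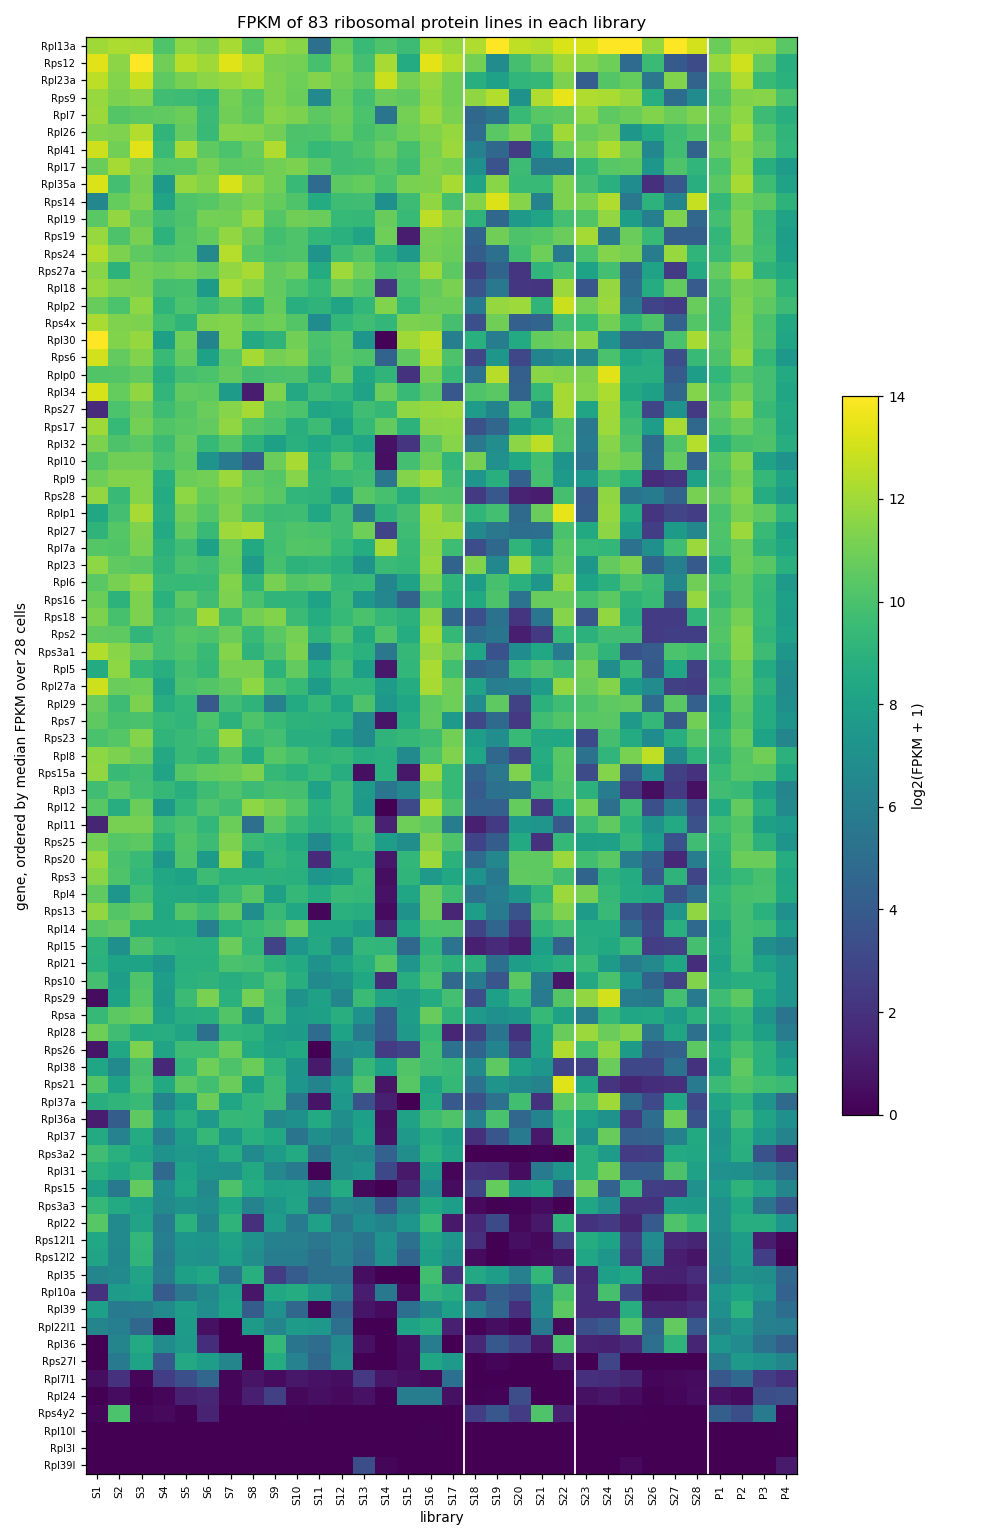
FPKM of 83 of the 87 members (rows, ordered by median over the cells) in the 28 cells and 4 pools (columns), as log2(FPKM + 1). White lines separate cells 1 to 17, 18 to 22, 23 to 28 and the pools; the top row is Rpl13a, and dark columns such as cell 14 have many members near 0.

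The stalk proteins recruit elongation factors to the ribosome. Rplp0, their base, had a median of 1009 in cells 1 to 17, values of 36.5, 5808, 17.6, 2905 and 2615 in cells 18 to 22, and its highest value of 10537 in cell 24. Rplp1 and Rplp2, which bind to it, had medians of 898 and 1029 in cells 1 to 17 and were both highest in cell 22, at 11361 and 7398. The stalk genes were not always high together: cell 20 had 3954 of Rplp2 beside 27.5 of Rplp1 and 17.6 of Rplp0.

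Among small subunit proteins, Rps6, the target of S6 kinase below mTOR, had a median of 1516 in cells 1 to 17 (21.02 to 8389.8). In cells 18 to 22 its values were 6.99, 169, 6.96, 80.1 and 118, all below the median of cells 1 to 17 but overlapping their range. Rps2 and Rps3 line the channel through which the message enters. Rps2 lay at 359.9 or higher in every cell of 1 to 17 and under 6 in cells 26, 27 and 28, and Rps3 had 1507 and 1451 in cells 20 and 21, where Rps2 had 1.25 and 4.18. Rpsa, the former laminin receptor of the small subunit, was among the steadiest members, from 15.8 to 1743 with a median of 334.

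The duplicate copies Rpl3l, Rpl10l and Rpl39l were low or at 0, beside partners with higher medians. Rpl3l, known from striated muscle, was listed at 0 in all 32 libraries beside Rpl3 at a median of 571. Rpl10l, a testis copy of Rpl10, was above 0 in 2 libraries and never above 0.0734, beside a median of 869 for Rpl10. Rpl39l, also of testis, was above 0 in 4 libraries, with its highest value of 9.38 in cell 13, beside 43.8 for Rpl39.

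Rpl7l1, a nucleolar relative of Rpl7, was found in 9 cells with a highest value of 33.2, while Rpl7 had a median of 1678. Rps27l, a p53 target that can take the place of Rps27, was found in 13 cells, 12 of them among cells 1 to 17, where its median was 74.2 against 1200.4 for Rps27. In the pools it had 59.7, 188, 138 and 83.9. Rpl22l1 was found in 19 cells and was highest in neuroblast-led cells 27 and 25, at 1587 and 1179. Its partner Rpl22 was high in cell 27 (1112) and low in cell 25 (1.77).

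The line Rps4y2, called Rps4l in GENCODE M21 and annotated there as a processed pseudogene, went against its neighbours at the low end. It had a median of 0.0283 but 1132 in cell 21 and 1065 in the endothelial-led cell 2, and 18.2, 9.16, 50.6 and 0.0862 in the pools. Its X-linked relative Rps4x had 22.7 in cell 21 and 2478 in cell 2. The high values of Rps4y2 were thus confined to 2 of the 28 cells, and in cell 21 Rps4x was low.

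The other 4 members annotated as processed pseudogenes were highest in the same cells as their parents. Rps3a2 ranged from 20.4 to 829 in cells 1 to 17 and Rps3a3 from 13.5 to 640.1, with both highest in cell 1, as was their parent Rps3a1 (5447). Rps12l1 and Rps12l2 were highest in cell 3, as was Rps12, at 609 and 569. In cells 18 to 22 none of the 4 exceeded 5.61, the value of Rps12l1 in cell 22, although Rps3a1 and Rps12 had means of 167 and 1821 there.

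Processed pseudogenes of the members divided the libraries more sharply than the members did. A match of transcripts assigned 1135 processed pseudogene lines to 79 of the members. Their FPKM as a share of members plus pseudogenes was 0.722%, 0.351%, 0.555%, 0.461% and 0.606% in cells 18 to 22. In the other 23 cells it lay between 27.2% and 40.6%, with a median of 32.4%, and in pools 1 to 4 it was 31.99%, 31.3%, 17.1% and 20.1%. The ranges of cells 18 to 22, of pools 3 and 4 and of all other libraries do not overlap. The processed pseudogenes of other genes divided the libraries in the same way, so the division was not particular to ribosomal ones: 3425 such lines took 0.0541% to 0.295% of all FPKM in cells 18 to 22, 3.28% to 7.88% in the other 23 cells, and 6.73%, 6.55%, 1.53% and 1.12% in pools 1 to 4. The low pseudogene signal of cells 18 to 22 is the reason that they were set apart, so it is given as a description. FPKM divides by length and many copies are short, so the size of the share depends on the unit: with FPKM multiplied by exonic length it had a median of 8.55% in the 23 other cells, 0.102% in cells 18 to 22 and a mean of 5.87% in the pools. The order of these sets was the same on both scales.

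The copies that match their parents exactly divided the libraries further. 20 of the pseudogenes were identical to their parent over the aligned bases, and 17 of them were above 0 in a cell of 1 to 17; the other 3, copies of Rpl41, were at 0 in every library. In each of the 23 cells outside 18 to 22, and in pools 1 and 2, 16 or 17 of these lines were above 0. Cells 18 to 22 had 3, 3, 1, 2 and 5, and pools 3 and 4 had 4 and 3.

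Pools 3 and 4 shared these low numbers with cells 18 to 22 but kept the less similar copies. Identical copies made up 8.75% and 9.25% of their own sum with the members in pools 1 and 2, but 0.0127% and 0.0154% for the later pair. For copies of 98% to under 100% identity the values were 15.9% and 16.6% against 4.75% and 5.19%. For copies under 98% they were 14.2% and 14.97% against 13.5% and 16.4%, so here the pools overlapped. All classes were low in cells 18 to 22, at up to 0.0248%, 0.274% and 0.495%. The split of the pools was chosen after these values were seen, and the labels give the same processing tools for all libraries.

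**Figure D3:**
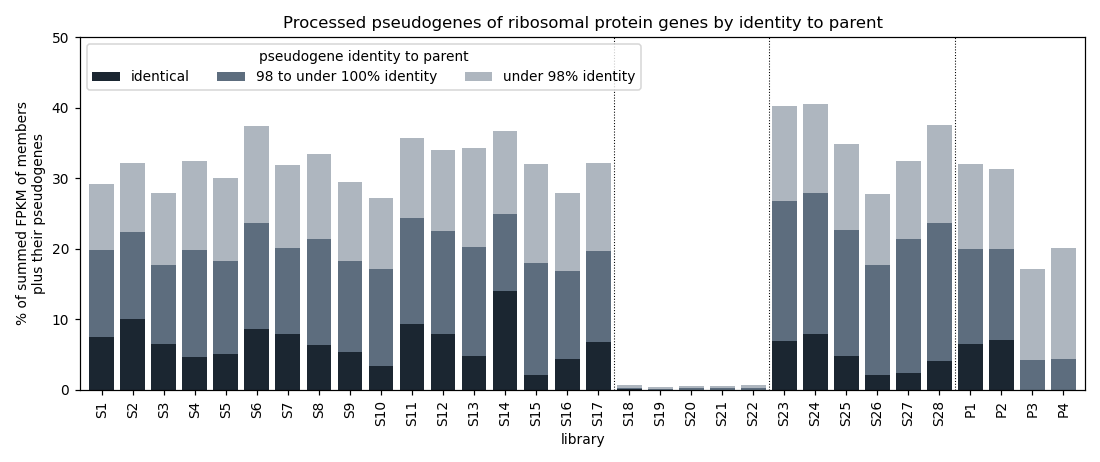
Processed pseudogenes of the members as percent of the summed FPKM of members plus pseudogenes in each library (stacked bars), split by identity to the parent over the aligned bases. Cells 18 to 22 stay under 1%, and pools 3 and 4 show no visible dark segment of identical copies.

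Rps29, a zinc-binding protein of the small subunit, is a case with an identical copy, Gm14303, whose transcript aligned to the parent without a mismatch. In cells 1 to 17 Gm14303 had a median FPKM of 288, from 1.01 in cell 1, where Rps29 had 0.384, to 1649 in cell 6, where Rps29 had 2315. Its FPKM was 0.592 to 2.62 times that of Rps29 in the 23 cells outside 18 to 22, so copy and parent were high and low together there. Gm14303 was listed at 0 in all 5 cells of 18 to 22, while Rps29 had 8.96, 235, 608, 55.8 and 1214. Pools 1 and 2 had 596 and 869 of the copy and pools 3 and 4 had 0, beside Rps29 at 789, 1413, 301 and 157 in pools 1 to 4. FPKM was thus assigned to Rps29 in all 4 pools and to this copy in pools 1 and 2 alone, and whether the copy itself was transcribed was not tested.

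Gm11572, the copy of Rps27 with 3 differences in the stretch above, had a median of 554 in cells 1 to 17, was listed at 0 in all 5 cells of 18 to 22 and also in cells 1, 26 and 28, and in pools 1 to 4 had 664, 1206, 146 and 43.7. It was thus lower, but not at 0, in pools 3 and 4.

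By parent, the pseudogene share in the 23 other cells had a median of 30.4% over the 79 parents, against 0.463% in cells 18 to 22 and 24.2% in the pools. It was over 50% for 12 parents. Rpl39 (88.4%), Rpl31 (75.4%), Rpl21 (72.2%) and Rpl37 (64.4%) were among those with the largest shares. Rpl8 and Rpl4 had none above 0.001%, Rps9 had 0.0053% and Rpl41 0.231%, although each had 1 to 4 matched lines. The share did not follow the number of copies in every case: Rps2 with 72 matched lines had 31.2% and Rpl39 with 9 had 88.4%. The share in cells 18 to 22 was lower than in the other cells for 76 of the 79 parents and above 5% for 6. These cells were set apart for their low pseudogene signal, so these counts are a description only.

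**Figure D4:**
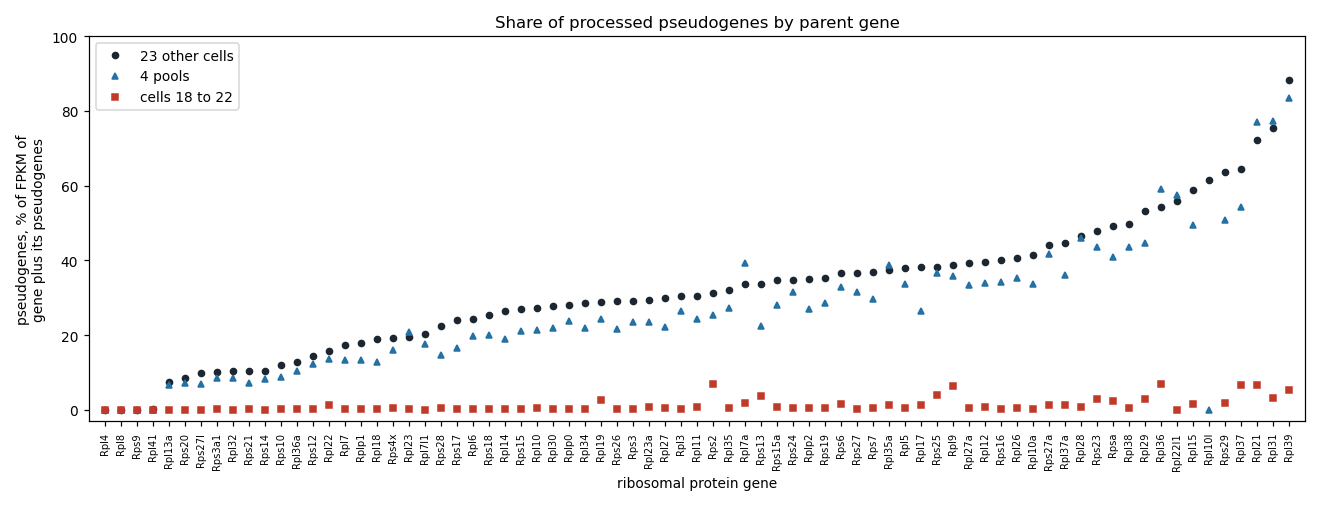
Share of pseudogene FPKM in the sum of a parent gene and its processed pseudogenes (percent), summed over the 23 other cells, the 4 pools and cells 18 to 22, with parents ordered by the first. The black points climb to 88.4% for Rpl39 while the red squares of cells 18 to 22 stay under 8%.

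Between cells 18 to 22 and the other 23 cells, the members themselves differed by less than the median gene. The log2 ratio of mean FPKM had a median of -0.88 over the members and of -1.64 over all genes, or -1.05 over abundant protein-coding genes. 38 members were at least 2-fold lower in cells 18 to 22, where 59.9% of all genes were, and 8 were at least 2-fold higher, where 9.2% were. Of 76 abundant protein-coding members, 31 were lower and 7 higher, where 50.2% and 26.2% of all genes of that level were. With each member's pseudogenes added to it, the median was -1.52, and against cells 1 to 17 alone it was -0.91. The members with a pseudogene share of at least 25% in the other cells had a median of -0.80 (54 members) and the rest -0.94 (25).

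Of the members highest in cells 18 to 22 relative to the other cells, most had their high mean from a single cell. Rps4y2 (log2 ratio 2.29) rested on cell 21, as given above. Rps21 (1.98) had 10107 in cell 22 and at most 152 in cells 18 to 21. Rpl39 (1.82) had 1395 in cell 22 and at most 107 in the rest. Rps9 (1.39) was high in 4 of the 5, at 3223, 5375, 5215 and 11236, with 144 in cell 20, and Rplp2 had a ratio of 1.34. Cell 22 held the highest value of 10 members, but this was not particular to it. Cell 1 held 15, cell 16 held 12 and cell 3 also held 10. The share over all genes was not computed.

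At the low end stood the pseudogene lines Rps3a2 (-7.94), Rps3a3 (-7.30), Rps12l2 (-6.67) and Rps12l1 (-5.80), with Rps27l at -6.27. The next protein-coding member was Rps6 at -4.47, with means of 76.4 and 1711. Rpl22l1 had -4.18 and Rpl11, which with Rpl5 restrains Mdm2, -3.58. Cells 18 to 20 were led by microglia genes and cell 22 by neuroblast genes, so cell type and the low pseudogene signal cannot be told apart in these ratios.

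The 4 pools did not stand apart from the cells as a group, and they differed widely from each other. The members' share was 7.98%, 16.04%, 7.83% and 3.12% in pools 1 to 4 (8.74% ± 5.36, SD, n = 4), with endothelial genes leading pools 2 and 3 and oligodendrocyte genes pools 1 and 4. Of the 85 members found in a library, 71 were highest in pool 2, where 30.3% of all genes and 30% of abundant protein-coding genes were, and 79 were lowest in pool 4, where 18.8% and 31.3% were. In a pool, fewer cells of a type and less RNA per cell cannot be told apart. The median log2 ratio over the cells' mean was -0.44, 0.69, -0.71 and -2.11 for pools 1 to 4.

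For the mean of the 4 pools it was -0.23, against 0.06 over all genes and -0.29 over abundant protein-coding genes. Its sign depended on the averaging: with the mean of log2 values on each side it was 0.77, and without pool 4 it was 0.04, while without pool 2 it was -0.85. 1 member was at least 2-fold higher in the pools, where 12.9% of all genes were, and 5 were at least 2-fold lower, where 13.9% were. Among abundant protein-coding genes, 3.85% were higher and 25.8% lower, beside 0 and 4 of 76 members of that level.

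The member that was higher was Rpl7l1, at 12.8, 26.4, 4.75 and 2.83 in the pools against a mean of 3.25 over the cells (log2 ratio 1.58), followed by Rps27l (0.62), Rps2 (0.47), Rpl39 (0.46) and Rpl27 (0.25). Rps4y2 (-1.97), Rpl31 (-1.41), Rpl28 (-1.20), and Rpl13a (-1.19) were among the lower 5. Rpl13a had 1872, 4345, 4147 and 1392 in the pools (2939 ± 1524, SD, n = 4), within the range of cells 1 to 17, whose median was 2956, whereas cells 18 to 28 ran from 3527 to 32150.2. The pools also contained Rps12 at 3605, 8039.8, 1577 and 445.

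**Figure D5:**
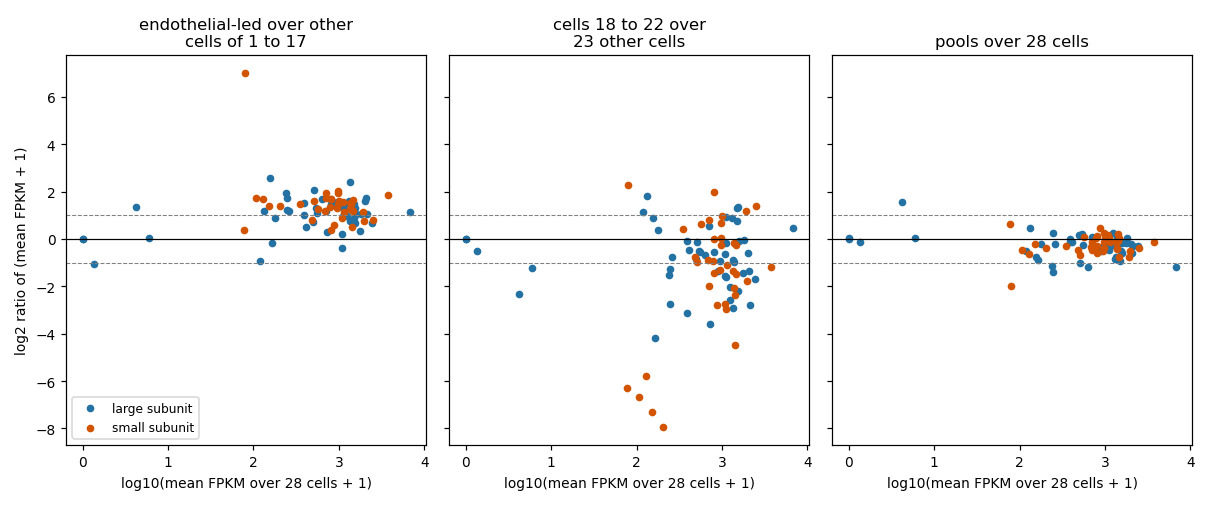
Log2 ratio of (mean FPKM + 1) for each of the 87 members, against log10 of (mean FPKM over the 28 cells + 1), in 3 comparisons; dashed lines mark 2-fold. Most members lie above 0 for endothelial-led cells, are scattered for cells 18 to 22, and lie close to 0 for the pools.

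From cell to cell the members as deposited varied less than genes of like level, taken from the middle range of the members' means (387 to 1325). The SD of log2(FPKM + 1) over the 28 cells had a median of 2.78 over all members. It was 2.79 over members with a mean FPKM of at least 10, and 3.77 over the 122 other protein-coding genes of that range. In cells 1 to 17 alone the members and these genes had 2.0 and 3.15. With the 2% limit the members' median over the 28 cells was 3.59, with no such value for the other genes. Rpl6 (1.46), Rpsa (1.46), Rpl26 (1.50), Rps23 (1.70), which sits at the decoding centre, and Rpl21 (1.71) had the smallest SD among members found in at least 14 cells. Rpl22l1 (3.50), Rps15a (3.49), Rpl37a (3.43) and Rpl18 (3.41) were among those with the largest. Rpl6 went from 84.8 to 3320.1, and Rps15a from 0.506 to 4069.

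The members also varied together. Over the 17 cells of 1 to 17, Spearman correlations of FPKM averaged 0.375 over all pairs of 81 members found in at least 9 of these cells, and 0.0228 over pairs of 112 genes of like level, as a description of cells that share depth and composition within each library. The median FPKM of large and small subunit members kept pace in the pools, with a log2 ratio of -0.23 to -0.04, and less so in cells, where it ranged from -1.54 to 0.67 in cells 1 to 17 and from -2.78 to 4.24 in cells 23 to 28. Cells 27 and 28 gave these last extremes, with 37 and 38 members at an FPKM of 100.

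Among 1942 other protein-coding genes found in at least 14 cells, those whose FPKM over the 28 cells followed the summed member FPKM most closely included Crip2 (Spearman 0.689, median FPKM 175), the myosin light chains Myl12a (0.679, median 119.6) and Myl6 (0.672, median 354), and Tmsb10 (0.666, median 106).

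Of the other genes of the pathway, ribosome-bound proteins and elongation factors were found in all cells for 9 of 18 genes, and initiation factors, assembly factors and mTOR pathway genes for 3 of 66. Of all genes 0.635% were found in all cells, and of abundant protein-coding genes 10%. With the 2% limit these counts were 2 of 18 and 0 of 66, and the shares 0.0856% and 0.657%. Among 8 fusion and ribosome-bound genes, 5 reached an FPKM of 1 in all 28 cells, with Tpt1 at a median of 3298 and Gnb2l1, the scaffold protein RACK1, at 685. Of 10 elongation factors 4 did, led by Eef1a1, which brings aminoacyl-tRNA to the ribosome, at 7462 (2980.3 to 25084); the neuronal and muscle form Eef1a2 reached an FPKM of 1 in none. Of 28 initiation factors 2 did (Eif1 and Eif4g2).

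Of 26 genes of ribosome assembly and RNA polymerase I, Npm1 was found in all 28 cells as deposited (median 255), and the list was found in a median of 8.5 cells per gene, with Myc in 4 and Mycn in 5. Of 12 genes of the mTOR branch of translation control none was found in all cells, and Rheb, found in 19, led. The 73 mitochondrial ribosomal protein genes were found in a median of 10 cells per gene, against 28 for the cytosolic set, and with the 2% limit in 9 against 24. In cells 18 to 22 relative to the other cells, 49 of the mitochondrial genes were at least 2-fold lower and 14 higher, and of the initiation factors 15 were lower and 4 higher, where 59.9% and 9.2% of all genes were. Of 5 snoRNA host genes with starts like those of ribosomal protein genes, Gas5 was found in 22 cells (median 52.99) and the others in 7 to 14.

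The loci of 46 members overlap another line of the table, 29 contain a small nucleolar RNA line and 18 a line on the opposite strand. The strand setting of the authors' quantification is not given in the sources used here, so fragments of such neighbours cannot be told apart from those of the member, and values of members with near-identical copies are uncertain.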

How the data were processed

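The deposited FPKM values of 28 single cells and 4 pools stand in 1 table made by the authors. Per the submitters' processing notes, TopHat 1.41 and Cufflinks 2.02 were used with mm9; the sources used here do not give its settings or depth. Gene IDs were matched to GENCODE M21 (GRCm38) for biotypes, transcripts and the printed coordinates, since the deposited coordinates overlap GRCm38 genes for 99.7% of matched lines. The members and gene lists were chosen with earlier results of these data known.

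Processed pseudogenes were assigned to the gene of their best transcript match with blastn 2.17.0 (word size 16, e-value 1e-10). Matches of at least 100 aligned bases or 50% of the pseudogene were considered. A line was counted as a member's pseudogene only where its best match covered at least 50% of it. "Found" means an FPKM of at least 1. Ratios are log2 of mean FPKM + 1 per side, called at 2-fold, and so understate changes of low genes. Python 3.11.15, pandas 2.3.3, numpy 2.4.6 and scipy 1.17.1 were used, and both steps were run on simulated data. For the ratios these data had less spread than the cells, and for the parents they were altered transcripts of the members. The runs therefore do not show how the steps perform on the deposited values. No test was made between cells, since the labels name no animal, and none between cells and pools. The 4 pools, which may be technical replicates, were only examined for a single outlying pool with Dixon's criterion. Named with values are the 10 members of highest and 6 of lowest median, those listed at 0 in most libraries, duplicate paralogs with their partners, stalk proteins, Rpsa, Rps2, Rps3 and Rps6, and the 5 at each end of each ratio, spread and pseudogene share. A few members and list genes count in all sums but are not reported here by name or in the plots that name genes.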

Additional observations from a re-analysis of the deposited data

Results flagged for a closer look

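Of 55 values over the 4 pools that were examined, 4 had 1 pool far from the other 3, with a gap to the nearest above Dixon's 95% critical share of the range. Chance alone flags about 1 in 20. Rpl21 had 817 in pool 2 against 269.6, 267 and 157 in pools 1, 3 and 4. Rpl22l1 had 154 in pool 2 against 75.02, 66.3 and 62.8. Pool 2 also had the highest value of most other members. Rpl39l and Rpl10l, both known from testis, had 1.01 and 0.0734 in pool 4 and were listed at 0 in the other 3 pools. With 3 pools at 0, any value above 0 in the fourth meets the criterion, so these entries carry no weight as outliers.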

How the results depend on the processing

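Of 135 values recomputed under other settings, 127 stayed within the spread or within 1.5 times the main count, 8 moved further and 0 changed sign by more than the spread. The pseudogene share moved with its unit and with its assignment. Weighted by exonic length it was 8.55% in the 23 other cells, 0.102% in cells 18 to 22 and 5.87% in the pools. With pseudogenes taken by name only it was 12.1%, 0.169% and 7.73%, since fewer lines were counted. The median SD over cells was 2.0 in cells 1 to 17 alone and 3.59 with low values of cells 18 to 28 put at 0 (chosen after seeing the data, as were the Rpl24 exchange, the protein-coding members alone and all settings of the endothelial-led ratio). The pools over cells ratio was 0.77 as a mean of log2 values, of opposite sign to the main value but within the spread. Leaving out 1 pool moved the pools over cells ratio between -0.85 and 0.04.

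No paired analysis was possible because the result comes from no test and the cells and pools share no animal or batch in the labels. Depth is known only approximately, so values near an FPKM of 0 carry no interval, and the cause of values listed at 0 was not tested.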
